A study of Mus musculus with 6 samples.

Results

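Genes that mark the projection neurons of the mouse cortex and the layers those neurons occupy were followed through bulk wells, plate nuclei and droplet nuclei of formalin-fixed, paraffin-embedded (FFPE) brain. The 8 members were chosen by name: Slc17a7, Cux2, Rorb, Fezf2, Foxp2, Tbr1, Bcl11b and Neurod6. All 8 were measured in every table with data, among 19006 mouse genes in the SCRB-seq wells, 21987 genes in the SMART-Seq2 wells, 23295 in the table that sets frozen and FFPE plate nuclei side by side, 21608 in the plate batches and 19905 in the droplet table.

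Cortical projection neurons are the glutamatergic neurons that send axons within the cortex and out of it, and their layer identity is set by transcription factors that partly repress each other. In the textbook scheme Cux2 and Rorb label the upper layers and layer 4, Fezf2 and Bcl11b the subcerebral neurons of layer 5, and Foxp2 and Tbr1 the corticothalamic neurons of layer 6. Slc17a7 encodes the vesicular glutamate transporter VGLUT1, which loads glutamate into synaptic vesicles, and Neurod6 encodes a basic helix-loop-helix factor of pallial glutamatergic neurons. Several members are also used outside the cortex: Slc17a7 in granule cells of the cerebellum, Foxp2 in striatum, thalamus and Purkinje cells, Bcl11b in striatal spiny neurons, and Rorb in thalamus.

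The 6 deposited samples came from C57BL/6J mice of 8 to 12 weeks, as nuclei released from scrolls 50 µm thick, and the labels name the tissue as cortex while the protocol names brain. Paraffin was removed from the bulk material by 3 methods: mineral oil under heat, xylene under heat and unheated xylene, called room-temperature xylene here. Frozen wells and frozen plate nuclei appear in the authors' annotation tables, not in the labels, so no label gives their strain, age or dissection. Each bulk chemistry is 1 deposited sample, so wells are technical units and their p-values measure the spread between wells and not between animals; the labels name no animal per well or nucleus.

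In length, the members range from 3.44 to 541 kb. In GENCODE annotation of GRCm38, Slc17a7 (ENSMUSG00000070570.5) lies on the plus strand at chr7:45163949-45176142 and Tbr1 (ENSMUSG00000035033.15) on the plus strand at chr2:61802930-61814114. Fezf2 (ENSMUSG00000021743.6) lies on the minus strand at chr14:12342094-12348189 and Neurod6 (ENSMUSG00000037984.9) on the minus strand at chr6:55677822-55681263. These are the 4 short genes, with 3.44 to 12.2 kb from the first to the last base. The 4 long genes are Bcl11b (ENSMUSG00000048251.15, minus strand, chr12:107910403-108003602, 93.2 kb), Rorb (ENSMUSG00000036192.15, minus strand, chr19:18930605-19111196, 181 kb), Cux2 (ENSMUSG00000042589.18, minus strand, chr5:121856366-122050102, 194 kb) and Foxp2 (ENSMUSG00000029563.16, plus strand, chr6:14901349-15441977, 541 kb). All 8 are protein-coding. Nuclear RNA is rich in unspliced transcripts and the counts are not per length, so levels below are compared within a gene and not between genes.

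RefSeq promoter sequence on GRCm38.p6 was matched for 7 of the 8 members, and Foxp2 was not matched. Shown here are the 250 bases before each start of 3 members on which the results turn: Neurod6 and Slc17a7, which shared frozen nuclei, and Rorb, which has 2 starts and stood apart in astrocyte droplets. These 4 windows overlap no annotated exon. Capitals mark CANNTG, the E-box read by basic helix-loop-helix factors such as NEUROD6, searched on both strands (the motif is its own reverse complement).
Neurod6, minus strand, chr6:55681264-55681513: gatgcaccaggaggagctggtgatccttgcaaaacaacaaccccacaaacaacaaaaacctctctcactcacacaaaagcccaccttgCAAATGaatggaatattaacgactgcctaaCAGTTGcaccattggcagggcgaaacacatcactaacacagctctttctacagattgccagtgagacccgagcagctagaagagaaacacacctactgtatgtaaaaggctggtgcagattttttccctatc
Slc17a7, plus strand, chr7:45163671-45163920: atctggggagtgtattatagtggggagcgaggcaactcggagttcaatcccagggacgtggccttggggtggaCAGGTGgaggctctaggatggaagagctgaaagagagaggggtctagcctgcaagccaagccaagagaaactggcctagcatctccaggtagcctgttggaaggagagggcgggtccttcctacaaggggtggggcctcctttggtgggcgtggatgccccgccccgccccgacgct
Rorb, first start, minus strand, chr19:19111197-19111446: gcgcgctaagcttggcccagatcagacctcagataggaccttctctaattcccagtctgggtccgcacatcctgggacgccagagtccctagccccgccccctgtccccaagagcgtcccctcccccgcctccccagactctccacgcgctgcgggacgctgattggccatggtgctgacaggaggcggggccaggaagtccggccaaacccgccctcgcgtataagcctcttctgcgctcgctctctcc
Rorb, second start, minus strand, chr19:19001118-19001367: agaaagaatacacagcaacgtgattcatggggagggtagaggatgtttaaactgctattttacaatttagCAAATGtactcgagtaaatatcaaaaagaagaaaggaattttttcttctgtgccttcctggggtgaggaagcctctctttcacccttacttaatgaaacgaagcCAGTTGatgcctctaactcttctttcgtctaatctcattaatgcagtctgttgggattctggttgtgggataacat
The Neurod6 window held 2 E-boxes and the Slc17a7 window 1. The first Rorb window held 0 and the second 2. Of 32851 promoter windows of the same length, 66.2% held at least 1 E-box and 31.8% at least 2, so these counts are ordinary for the genome. GC content was 46.0% before Neurod6, 61.2% before Slc17a7, 66.0% at the first Rorb start and 39.2% at the second, against a median of 52.4% over all windows. The T-box motif AGGTGTGA, bound by TBR1, was in 1.12% of all windows, and the motif AGGTCA, bound by ROR proteins, in 14.0%; neither was in a window of a matched member. A match is a description of letters and not a binding site.

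The SCRB-seq wells (a plate method that reads transcript ends) held 7512 to 167144 mouse counts, 16 wells per treatment with 8 of 10 nuclei and 8 of 100 nuclei. The 12 SMART-Seq2 wells (full-length transcripts) held 270363 to 942966 counts, with 1 well each of 100, 50 and 10 nuclei per treatment. Markers of the cortex label were present in every group: 14 to 18 of 18 measured genes of a cortical glutamatergic list were detected per SCRB-seq treatment and 14 to 19 of 19 per SMART-Seq2 treatment. Markers of cerebellar granule cells, which the cortex does not hold, were far more abundant in FFPE wells. Their summed level was 56.8 to 508 CPM (a count scaled to the library total, here the mouse counts) in frozen SCRB-seq wells and 499 to 7055 in FFPE wells, and 311 to 611 against 2707 to 8153 in SMART-Seq2. Of 11 measured granule markers, Gabra6, Cbln3, En2 and Barhl1 were at 0 in all frozen wells of both chemistries, which detected 7 of the 11 in SCRB-seq and 4 in SMART-Seq2, and all 11 were detected in FFPE wells of both. Striatal spiny neuron markers, of interest for Bcl11b, were detected at 10 of 10 in frozen wells of both chemistries and at 7 (SCRB-seq, with the dopamine receptor gene Drd1 at 0) and 9 (SMART-Seq2, with the adenosine receptor gene Adora2a at 0) in FFPE wells. Their summed level was 769.5 to 3350 CPM in frozen and 0 to 2143 in FFPE SCRB-seq wells, and 2112 to 2756 against 1590 to 2941 in SMART-Seq2. Oligodendrocyte markers had a median summed level of 362 CPM in frozen SCRB-seq wells, 1953 with heated xylene, 1845 with room-temperature xylene and 182 with heated mineral oil, where the pooled level was nevertheless above frozen (581 against 335). In SMART-Seq2 these medians were 118 in frozen, 2106, 1092 and 460.4. The part of this difference in cell sources in any comparison of frozen with FFPE below was not tested. In bulk wells, fewer nuclei of a type and less RNA per nucleus cannot be told apart.

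In the SMART-Seq2 wells all 8 members had a higher pooled level in frozen than in FFPE wells, where 39.2% of 17240 genes did, and Cux2 was the member with the clearest separation. This share, and the like shares for SCRB-seq wells and plate nuclei below, cover every gene with at least 1 count. The genes were not matched to the members for coverage. Levels are CPM, given for the wells of 100, 50 and 10 nuclei in that order. Cux2, a homeodomain factor of upper layer neurons, stood at 394, 189 and 789 in frozen wells. It stood at 46.1, 85.5 and 0 with heated xylene, at 10.2, 84.7 and 0 with room-temperature xylene and at 41.7, 75.7 and 17.6 with heated mineral oil. Every frozen well was above every FFPE well. Pooled over wells, Cux2 was at 576 CPM (exact 95% Poisson interval 539.8 to 614) in frozen and 39.6 (34.6 to 45.2) in FFPE, 14.5-fold higher; such intervals cover counting error only. Of the frozen Cux2 counts, 74.9% came from the well of 10 nuclei. Without that well, an alternative chosen after seeing the data, the pooled frozen level was 319 CPM (279 to 362).

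Rorb, a nuclear receptor that marks layer 4, was less clearly separated. It stood at 465, 178 and 238 CPM in frozen wells. With heated xylene it stood at 141, 80.4 and 182, and with heated mineral oil at 168, 168 and 81.9. With room-temperature xylene it ran from 0 in the well of 10 nuclei through 18.3 in that of 100 to 261 in that of 50. The groups overlapped through heated xylene and that last well, and the pooled levels were 293 CPM in frozen and 129 in FFPE.

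Bcl11b (CTIP2), a zinc-finger factor of subcerebral neurons, stood at 116, 185 and 94.3 CPM in frozen wells. In FFPE wells it reached 112 in the heated xylene well of 50 nuclei and otherwise lay at 0 to 51.0. The frozen wells were above 8 of 9 FFPE wells, and pooled levels were 115 CPM (99.6 to 133) against 34.5 (29.8 to 39.7). Fezf2, the zinc-finger selector of subcerebral identity, gave 1, 2 and 1 counts in the frozen wells and 9 counts in 1 heated xylene well. It was at 0 in the other 8 FFPE wells, and its pooled levels of 2.46 CPM (0.669 to 6.29) in frozen and 1.59 (0.728 to 3.02) in FFPE were not distinguishable at this depth.

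Foxp2, a forkhead factor of corticothalamic neurons, stood at 131, 111 and 153 CPM in frozen wells, 67.7, 117 and 161 with heated xylene, 57.1, 155 and 0 with room-temperature xylene and 76.7, 147 and 15.6 with heated mineral oil. The groups overlapped throughout, and pooled levels of 139 and 94.5 CPM differed by 1.48-fold. Tbr1, a T-box factor that specifies layer 6 neurons, stood at 6.43, 18.5 and 12.3 CPM in frozen wells and at 13.0, 31.9 and 26.5 with heated xylene. It was at 0 in all 3 wells of room-temperature xylene and in 2 of 3 with heated mineral oil, where the third had 2 counts. Its pooled levels were thus near equal, 11.7 CPM in frozen and 10.8 in FFPE, while 59 of the 61 FFPE counts came from heated xylene.

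The 2 members that mark glutamatergic identity across layers behaved differently from each other. Slc17a7 stood at 30, 14.8 and 57.2 CPM in frozen wells, 15.8, 6.38 and 24.4 with heated xylene, 30.6, 24.7 and 4.06 with room-temperature xylene and 6.73, 75.7 and 5.85 with heated mineral oil. The highest well was FFPE, and 80.0% of the heated mineral oil counts came from that well. Neurod6 stood at 27.9, 11.1 and 33.7 CPM in frozen wells and at 13.0, 20.4 and 102 with heated xylene. It was at 0 in all 6 wells of the other methods, which allows up to 1.94 CPM pooled over room-temperature xylene and 1.79 over heated mineral oil (3 counts). As with Tbr1, the FFPE counts of Neurod6 sat with heated xylene, and 79.3% of them came from 1 well. Pooled over all methods, Neurod6 was at 28.3 CPM in frozen and 21.4 in FFPE wells, 1.32-fold higher in frozen.

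**Figure D1:**
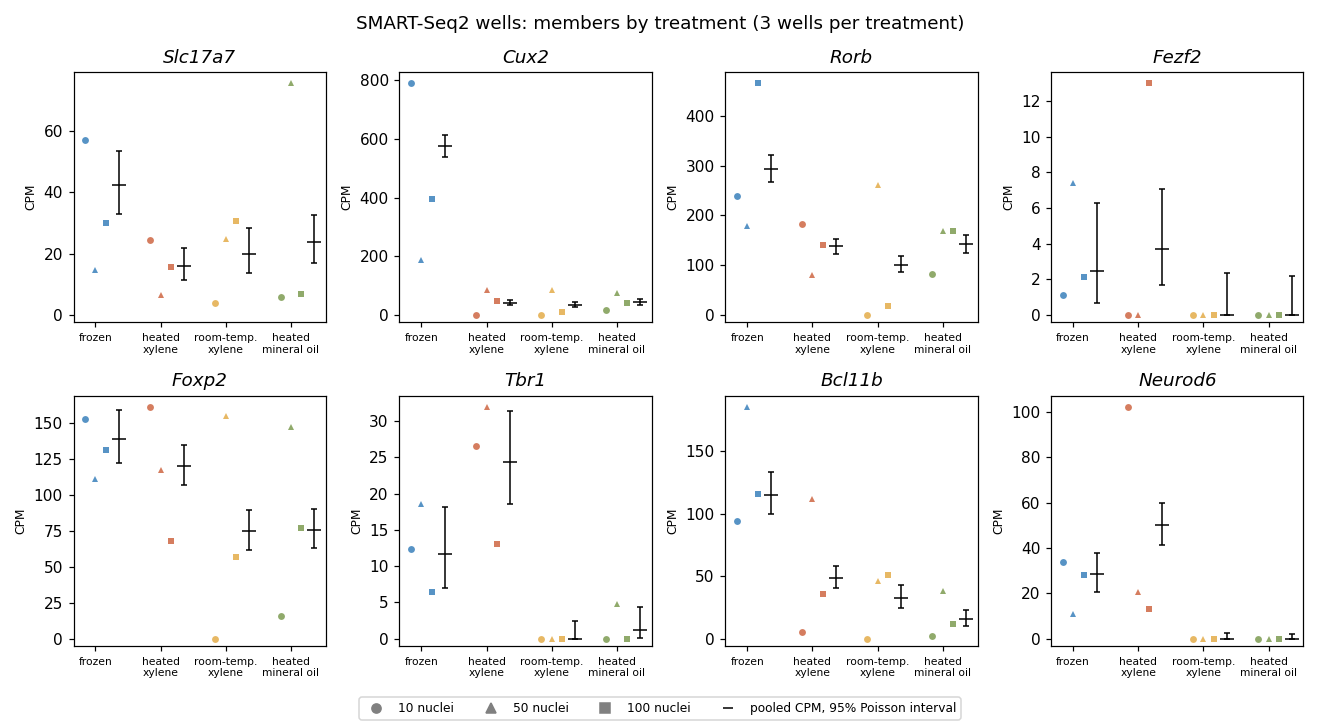
Level of each member in the 12 SMART-Seq2 wells, as CPM on a linear axis from 0, by treatment; the marker shape gives the number of nuclei and the black bar the pooled CPM with its 95% Poisson interval. Cux2 runs from 189 to 789 in frozen wells and reaches 85.5 at most in FFPE wells, while Tbr1 and Neurod6 have counts in all 3 heated xylene wells and almost none with the other methods.

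Tested across genes with edgeR's quasi-likelihood test, 6 of the 8 members passed the filter on low counts and 1 was called at a Benjamini-Hochberg adjusted p under 0.05, Cux2. Of 9092 genes tested, 4.09% were called and 2.64% were lower in FFPE. Cux2 fell by 3.85 on the log2 scale (SE 0.87, edgeR adjusted p = 0.00941). Bcl11b had a log2 difference of -2.37 (SE 0.99, edgeR adjusted p = 0.235). Neurod6 did not pass either (edgeR adjusted p = 0.0646), and its fitted size is not given, because it averages over 2 methods with wells at 0 and so depends on the prior count. Rorb at -1.57, Slc17a7 at -1.02 and Foxp2 at -0.88 did not pass the test either, so all 6 estimates had the same sign and 1 passed. The Slc17a7 value moved to -0.31 without the frozen well of 10 nuclei and to -1.72 without the heated mineral oil well of 50 nuclei, uncalled in both. Without the frozen well of 10 nuclei the Cux2 call was lost (log2 difference -3.11, edgeR adjusted p = 0.216), and leaving out 1 FFPE well, that of 50 nuclei with unheated xylene, added a call for Rorb (-2.68, edgeR adjusted p = 0.0226). Fezf2 and Tbr1 did not pass the default filter. With at least 10 counts over all wells both were tested and not called (edgeR adjusted p = 0.435 and 0.405).

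The SCRB-seq wells, of far lower depth, also had all 8 pooled levels higher in frozen, where 44.8% of 19006 genes were. Slc17a7 ran from 0 to 237 CPM in frozen wells with a median of 106, and 15 of 16 wells had a count. Its medians were 72.3 with heated mineral oil (0 to 311), 25.5 with room-temperature xylene (0 to 77.9) and 13.2 with heated xylene (0 to 70.6). The heated mineral oil wells thus lay nearest to the frozen wells, and all 4 ranges overlapped. Pooled levels were 112 CPM (92.5 to 134) in frozen and 42.0 (35.0 to 50.0) in FFPE, 2.66-fold higher in frozen.

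Of the upper layer genes, Cux2 had a count in all 16 frozen wells, from 50.8 to 290.3 CPM with a median of 143. The FFPE medians were 69.1 with room-temperature xylene, 56.0 with heated xylene and 48.2 with heated mineral oil, with single wells up to 561. Rorb also had a count in all 16 frozen wells, from 102 to 449.6 CPM with a median of 219. Among FFPE methods Rorb followed a different order from Slc17a7, with a median of 143 for heated xylene (35.3 to 1002), 62.3 for heated mineral oil (0 to 382) and 43.2 for room-temperature xylene (0 to 130.3). Frozen and FFPE wells overlapped for both genes, and pooled frozen levels were 2.03-fold higher for Cux2 and 2.27-fold higher for Rorb.

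Of the deep layer genes, Fezf2 was found in 8 of 16 frozen wells, up to 51.5 CPM, and in 1 of 48 FFPE wells, at 37.7. Its pooled level was 19.7 CPM (12.2 to 30.1; 21 counts) in frozen and 1.34 (0.366 to 3.44; 4 counts) in FFPE, so these intervals did not overlap. Tbr1 was found in 6 of 16 frozen wells and 1 of 48 FFPE wells, with 14 and 3 counts and pooled levels of 13.1 CPM (7.18 to 22.0) and 1.01 (0.208 to 2.95). Both genes were thus rarely detected after paraffin embedding in this chemistry, and their FFPE counts each came from a single room-temperature xylene well. Bcl11b had a frozen median of 71.1 CPM (0 to 356), and among FFPE wells 13 of 16 with heated xylene, 6 of 16 with room-temperature xylene and 5 of 16 with heated mineral oil had a count. Foxp2 had medians of 62.9 CPM in frozen, 49.4 with heated xylene, 47.9 with heated mineral oil and 37.4 with room-temperature xylene. The 4 Foxp2 medians lay well inside the range of any single treatment.

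Neurod6 repeated the SMART-Seq2 pattern by method. It was found in 5 of 16 frozen wells, up to 66.8 CPM, and in 4 of 16 heated xylene wells, up to 128 CPM. It was at 0 in all 32 wells of heated mineral oil and room-temperature xylene. Its 13 heated xylene counts all came from wells of 10 nuclei, and 76.9% of them from 1 well, so the method and that well cannot be told apart.

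**Figure D2:**
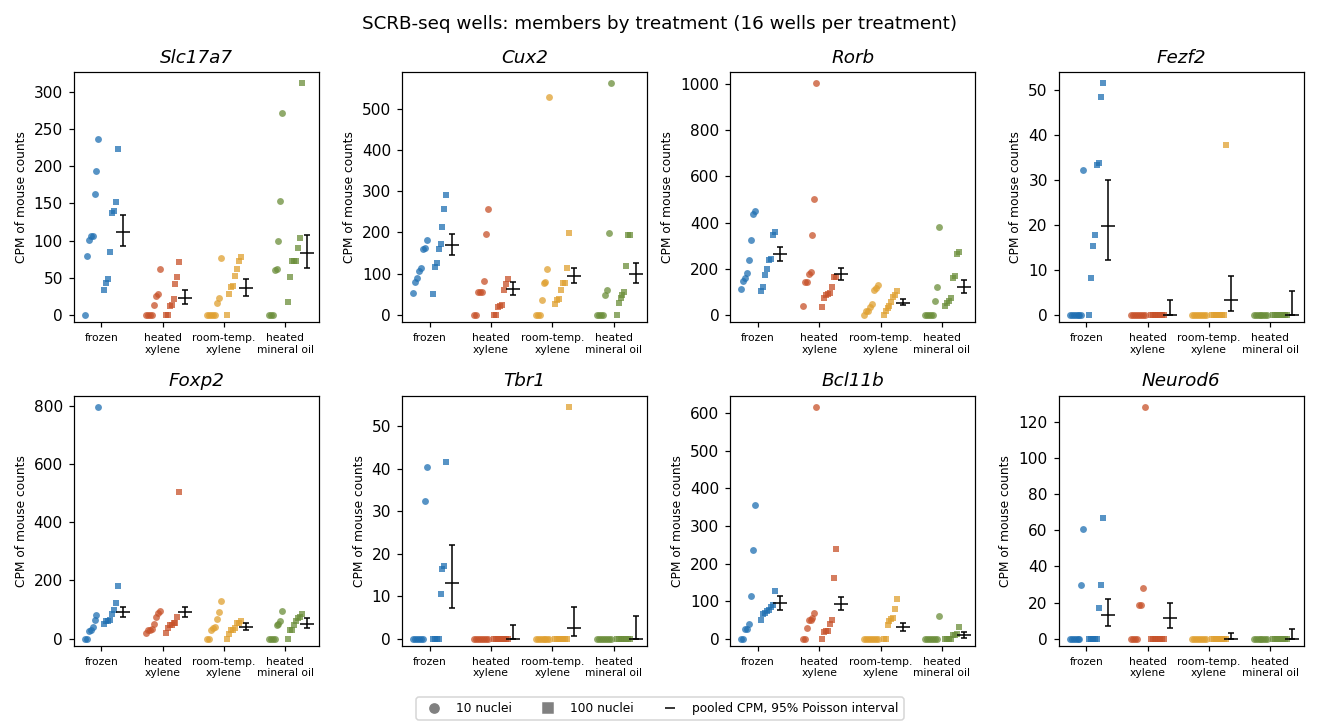
Level of each member in the 64 SCRB-seq wells, as CPM of mouse counts on a linear axis from 0, with 16 wells per treatment; circles are wells of 10 nuclei, squares wells of 100, and the black bar the pooled CPM with its 95% Poisson interval. Fezf2 and Tbr1 have counts in 8 and 6 frozen wells and in 1 FFPE well each, while Cux2 and Rorb have counts in all 16 frozen wells.

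Of the 8 members, 1 passed the default filter on low counts in SCRB-seq, Rorb, which fell by 1.17 on the log2 scale in FFPE (SE 0.32, edgeR quasi-likelihood test, Benjamini-Hochberg adjusted p = 0.00106). In that fit 58.0% of 1478 tested genes were called, 27.7% as lower in FFPE, so a call for a well-covered gene is common. The calls split into 447 higher and 410 lower, and with DESeq2 size factors into 309 and 674, with the median of all genes shifted by -0.58. With a filter of at least 10 counts over all wells, which tests 14524 genes and calls 31.9% of them, all 8 members were tested and 6 were called, each lower in FFPE. Bcl11b fell by 1.58 (SE 0.46), Slc17a7 by 1.44 (SE 0.39) and Rorb by 1.14 (SE 0.34) under that filter. Fezf2, Tbr1 and Neurod6 were called too, each with 2 methods at 0, so their fitted sizes are not given. Cux2 (-0.79, edgeR adjusted p = 0.127) and Foxp2 (-0.77, edgeR adjusted p = 0.134) did not pass. In wells of 100 nuclei alone, where 45.9% of genes were called, Cux2 and Rorb were the members tested and both were called. With wells summed by treatment and nuclei number, 0.752% of genes and 0 of 5 tested members were called, with Rorb at -1.38 (SE 0.61, edgeR adjusted p = 0.320); 1503 of 10235 genes had an unadjusted p under 0.05 there.

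Between the 3 ways of removing paraffin, no member reached the default filter in SCRB-seq, where the 3 contrasts called 8.52% (heated mineral oil minus heated xylene), 1.94% (heated xylene minus room-temperature xylene) and 10.3% (heated mineral oil minus room-temperature xylene) of genes. With at least 10 counts over the FFPE wells, 6 members were tested in contrasts that called 26.6%, 21.1% and 22.0% of genes. Heated mineral oil minus heated xylene gave 3 called members: Slc17a7 was higher by 1.63 (SE 0.61, edgeR adjusted p = 0.0353), while Bcl11b (-3.33, SE 0.78, edgeR adjusted p = 0.000785) and Neurod6 (at 0 with heated mineral oil, edgeR adjusted p = 0.00582) were lower. Heated xylene minus room-temperature xylene also gave 3, all higher with heat: Rorb by 1.82 (SE 0.51, edgeR adjusted p = 0.0051), Bcl11b by 1.78 (SE 0.66, edgeR adjusted p = 0.0416) and Neurod6 against wells at 0 (edgeR adjusted p = 0.00213). Heated mineral oil minus room-temperature xylene gave 0, with 4509 genes at an unadjusted p under 0.05. All 6 calls were lost with wells summed by treatment and nuclei number, where edgeR called 0 of 9161 genes in each contrast (416, 267 and 343 at an unadjusted p under 0.05). The contrasts share wells, the heated mineral oil wells were the shallowest (median 26386 counts against 67426 and 64960), and the part of depth was not tested. In SMART-Seq2 the same 3 contrasts called 0% of 8372 genes (0 of 5 tested members; 314, 199 and 379 genes at an unadjusted p under 0.05). DESeq2 called 20, 1 and 26 genes at an adjusted p under 0.05, with 0 members. In SCRB-seq the pooled level of Bcl11b among FFPE wells was highest with heated xylene, at 92.3 CPM (75.4 to 112), but 2 wells held 35 and 33 of its 104 counts. In SMART-Seq2 it was 48.7 (40.3 to 58.4) with heated xylene and 32.9 (24.5 to 43.3) with room-temperature xylene, but 74.6% of the heated xylene counts came from the well of 50 nuclei. Without the top well of each method, an alternative chosen after seeing the data, these levels were 18.3 (12.4 to 26.2) and 25.4 (16.5 to 37.5), in the reverse order.

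The members were set beside wider lists of genes from the same neurons. Of 18 measured cortical glutamatergic genes, 6 were tested in SCRB-seq and 5 fell in FFPE (27.7% of all genes tested did), with a median log2 difference of -2.18 against 0.00 over all genes. In SMART-Seq2, 15 of 19 were tested and 6 fell (2.64% of all genes), with a median of -1.55 against -0.13. Camk2a, the postsynaptic kinase CaMKII alpha, fell by 3.30 (SE 0.29) and 3.08 (SE 0.41) in the respective chemistries, and Nrgn, a calmodulin-binding protein of excitatory spines, by 2.93 (SE 0.33) and 3.17 (SE 0.72). Mef2c, an activity-regulated transcription factor, fell by 2.81 in SCRB-seq, and Slc30a3, the vesicular zinc transporter, was called lower in SMART-Seq2, with heated mineral oil wells at 0. The frozen and FFPE summed levels of this list did not overlap: 4011 to 6215 CPM against 146 to 2775 in SCRB-seq and 4886 to 6788 against 1013 to 3041 in SMART-Seq2.

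The upper layer list had calls in 1 direction and the deep layer list in both. Of 18 upper layer and layer 4 genes, 4 were tested in SCRB-seq and 3 fell, Rorb among them (median -1.20; 27.7% of all genes fell). In SMART-Seq2, 13 were tested and 6 fell, Cux2 among them (median -2.54; 2.64% of all genes fell). Unc5d, a netrin receptor of migrating upper layer neurons, fell by 2.76 (SE 0.29) and 5.12 (SE 0.83), and Otof, which encodes the calcium sensor otoferlin, was called lower in SMART-Seq2, with heated xylene wells at 0. Of 23 measured genes of layers 5 and 6, 5 were tested in SCRB-seq, with 3 that rose and 1 that fell (median 0.60), where 30.2% of all genes rose and 27.7% fell. In SMART-Seq2, 16 were tested, with 2 that rose and 1 that fell (median -0.90), where 1.45% of all genes rose and 2.64% fell. Etv1, an ETS factor of layer 5, rose by 2.77 (SE 0.49) and 2.30 (SE 0.59), and Zfpm2 (FOG2), a corticothalamic factor, by 1.71 (SE 0.40) and 1.88 (SE 0.43). Whether these rises came from cortical cells was not tested. Hs3st4, a heparan sulfate sulfotransferase of layer 6, fell by 2.58 (SE 0.42) in SCRB-seq, and Ldb2, a LIM-domain binding factor of layer 5, fell by 3.66 (SE 0.80) in SMART-Seq2. Beside these lists, 7 of 7 tested cerebellar granule genes rose in SCRB-seq, where 30.2% of all genes did, and 7 of 8 in SMART-Seq2, where 1.45% did. Gabra6, the GABA-A receptor subunit of granule cells, was called in both chemistries and at 0 in every frozen well. A further 3 granule genes in SCRB-seq and 6 in SMART-Seq2 were also at 0 in frozen wells, so no fold or median is given. Interneuron markers had pooled summed levels of 273 CPM in frozen and 1002 in FFPE SCRB-seq wells, where 2 of 2 tested rose, and of 172 and 1540 in SMART-Seq2, where 1 of 5 did. The SCRB-seq median of this list was 236 in frozen wells, 1019 with heated xylene and 999.6 with room-temperature xylene. It was 122 with heated mineral oil, where the pooled level was 344 and Gad2, Lhx6, Sst and Vip were at 0. In SMART-Seq2, Lhx6 was at 0 in all FFPE wells and detected in frozen ones. Astrocyte markers stood at 472 and 1198 in SCRB-seq (1 of 2 rose) and 531 and 1636 in SMART-Seq2 (0 of 4).

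Close relatives of the members were fitted alongside. Cux1, the paralog of Cux2, had log2 differences of 0.37 (SCRB-seq, edgeR adjusted p = 0.431) and -0.24 (SMART-Seq2, edgeR adjusted p = 0.886). Foxp1 rose by 0.60 in SCRB-seq (edgeR adjusted p = 0.0217) and had -0.92 in SMART-Seq2 (edgeR adjusted p = 0.178). Rora, the paralog of Rorb with broad use in cerebellum and thalamus, fell by 0.94 in SCRB-seq (edgeR adjusted p = 4.80e-04) and had -0.05 in SMART-Seq2 (edgeR adjusted p = 0.964). Bcl11a, the paralog of Bcl11b, had -2.06 in SMART-Seq2 (edgeR adjusted p = 0.113), near the -2.37 of Bcl11b, and Slc17a6, which encodes VGLUT2, had -1.71 (edgeR adjusted p = 0.618). Neurod2, which like Neurod6 drives glutamatergic differentiation and is also used in granule cells, had a pooled SMART-Seq2 level of 9.21 CPM in frozen and 74.0 in FFPE wells (log2 difference 2.81, edgeR adjusted p = 0.184), the opposite order from Neurod6. No difference between a member and its relative was tested.

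The plate nuclei, which are other libraries than the bulk wells, also set frozen beside FFPE. They are 137 frozen nuclei (2 plates) and 143 FFPE nuclei (2 plates), 134 of which are the nuclei of batch 2. Counts per nucleus had a median of 255329 in frozen and 47887 in FFPE nuclei. The 9 further FFPE nuclei held 102136 to 4973791 counts each, 13521527 of the 23616215 FFPE counts. Whether each of these 9 libraries is a single nucleus was not tested. They enter every FFPE level below, and levels of the batch 2 nuclei alone are given where the order changes. Batch 1 is a separate set of 98 FFPE nuclei with a median of 180584. Each set is 1 sample, so no test was made across nuclei. At least 1 member was found in 118 of 137 frozen nuclei (86.1%, exact 95% binomial interval 79.2 to 91.4), 74 of 143 FFPE nuclei (51.7%, 43.2 to 60.2) and 57 of 98 nuclei of batch 1 (58.2%, 47.8 to 68.1). Depth moved with this: frozen nuclei with a member had a median of 403282 counts and those without 29139.

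All 8 members had a higher pooled level in frozen than in FFPE nuclei, where 52.3% of 21275 genes did, and were found in a larger share of frozen nuclei, where 89.6% of genes were. Bcl11b, Tbr1, Fezf2 and Neurod6 were the members near absent from FFPE nuclei. Bcl11b was found in 64.2% of frozen nuclei (55.6 to 72.2), 9.09% of FFPE nuclei (4.93 to 15.0) and 4.08% of batch 1 nuclei. Its pooled level was 285 CPM in frozen and 4.07 in FFPE nuclei, 70.1-fold higher (Poisson interval 57.4 to 86.6). This interval and those of the ratios below take the counting error of the FFPE count alone and hold the frozen level fixed. The Bcl11b ratio was 99.3 against the batch 2 nuclei alone and 134 against batch 1, both outside that interval. Without the top nucleus of the gene in each group, the levels were 253 and 2.38 CPM. The frozen plates, at 228 and 339 CPM, lay far above the FFPE plates, at 3.24 and 4.32, and those of batch 1, at 0.750 and 2.38.

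Tbr1 was found in 43 of 137 frozen nuclei (31.4%, 23.7 to 39.9), in 0 of 143 FFPE nuclei and in 0 of 98 in batch 1. With a 0 taken to allow 3 nuclei, a rule apart from the exact intervals, these shares could be up to 2.10% and 3.06%. Taking the 3 counts that a 0 allows over all FFPE nuclei, the frozen Tbr1 level of 31.4 CPM was at least 247-fold higher. That bound is 106 against the 134 nuclei of batch 2 and 182 against batch 1. Fezf2 was found in 43 frozen nuclei too and in 2 FFPE nuclei, with 1722 and 2 counts, a ratio of 319.9 with a counting interval of 88.5 to 2641, and was at 0 in the batch 2 nuclei (at least 91.2-fold higher). Neurod6 was found in 29 frozen and 2 FFPE nuclei, with 346 and 2 counts, a ratio of 64.3 (17.8 to 531). Fezf2 and Neurod6 were at 0 in batch 1 as well. The pooled frozen over FFPE ratios were smaller in the SCRB-seq and SMART-Seq2 bulk wells. They were 1.91 and 3.35 for Bcl11b, 13.0 and 1.08 for Tbr1, 14.7 and 1.54 for Fezf2 and 3.01 and 1.32 for Neurod6. The reason for this gap between wells and nuclei was not tested. A single frozen nucleus held 41.7% of the Tbr1 counts and another 33.9% of the Fezf2 counts, but each gene was found in both frozen plates, Tbr1 in 27.5% and 35.3% of nuclei and Fezf2 in 30.4% and 32.4%.

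The other 4 members were found in FFPE nuclei at levels closer to frozen. Slc17a7 was found in 48.9% of frozen nuclei (40.3 to 57.6), 33.6% of FFPE nuclei (25.9 to 41.9) and 15.3% of batch 1 nuclei (8.83 to 24.0), with pooled levels of 64.4, 33.9 and 68.4 CPM. Cux2 was found in 60.6% (51.9 to 68.8), 16.1% (10.5 to 23.1) and 15.3% (8.83 to 24.0), with 142, 109 and 13.5 CPM. Foxp2 was found in 39.4%, 19.6% and 31.6%, with 97.2, 90.3 and 141 CPM. Foxp2 was thus the member whose share in batch 1 came nearest to that in frozen nuclei, with overlapping intervals (31.2 to 48.1 and 22.6 to 41.8). Rorb was found in 46.0%, 12.6% and 16.3%, with 57.6, 37.4 and 111 CPM.

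For these 4 a few FFPE nuclei carried most counts. An FFPE nucleus of 4711732 counts held 84.6% of the Rorb counts and 69.7% of the Foxp2 counts, and another nucleus 48.4% of the Slc17a7 counts. In an alternative chosen after seeing the data, without the top nucleus of each gene in each group, all 8 members stayed higher in frozen, with Rorb at 44.3 and 7.19 CPM, Slc17a7 at 57.8 and 17.7, Foxp2 at 49.4 and 34.2 and Cux2 at 126 and 79.0. With the 134 batch 2 nuclei alone in place of all FFPE nuclei, Slc17a7 (76.0 CPM) and Cux2 (237 CPM) were above frozen and the other 6 below. With the mean of the CPM of single nuclei in place of pooled counts, 6 of 8 members were higher in frozen, the exceptions being Slc17a7 (46.8 in frozen, 70.3 in FFPE) and Cux2 (120.0 and 123). Against batch 1, Slc17a7, Rorb and Foxp2 were above frozen and 5 members below. Bcl11b, Tbr1, Fezf2 and Neurod6 were lower than frozen in each of these sets.

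Shares were also taken at a fixed total count per nucleus. Thinned to 10000 counts per nucleus, which left out 10 frozen and 8 FFPE nuclei, Bcl11b was found in 39.4% of 127 frozen and 1.48% of 135 FFPE nuclei, Cux2 in 33.9% and 5.19%, and Rorb in 20.5% and 2.22%. Fezf2 was found in 13.4% and 0%, Tbr1 in 8.66% and 0% and Neurod6 in 2.36% and 0%, where the Neurod6 intervals overlapped (0.490 to 6.75 and 0 to 2.70). Intervals also overlapped for Slc17a7, at 26.0% and 17.0%, and Foxp2, at 15.0% and 10.4%. Marker genes of other cells differed as well: Gabra6 was found in 1 frozen nucleus and in 56 of 143 FFPE nuclei (39.2%). Over the whole lists, summed pooled levels were 4553 CPM in frozen and 2207 in FFPE for cortical glutamatergic genes and 451 and 2712 for granule genes, with all 11 granule markers detected in both sets. They were also lower in FFPE for interneuron markers, at 2298 and 1108, and for oligodendrocyte precursor markers, at 1592 and 474. The part of cell makeup in the members' difference was not tested.

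**Figure D3:**
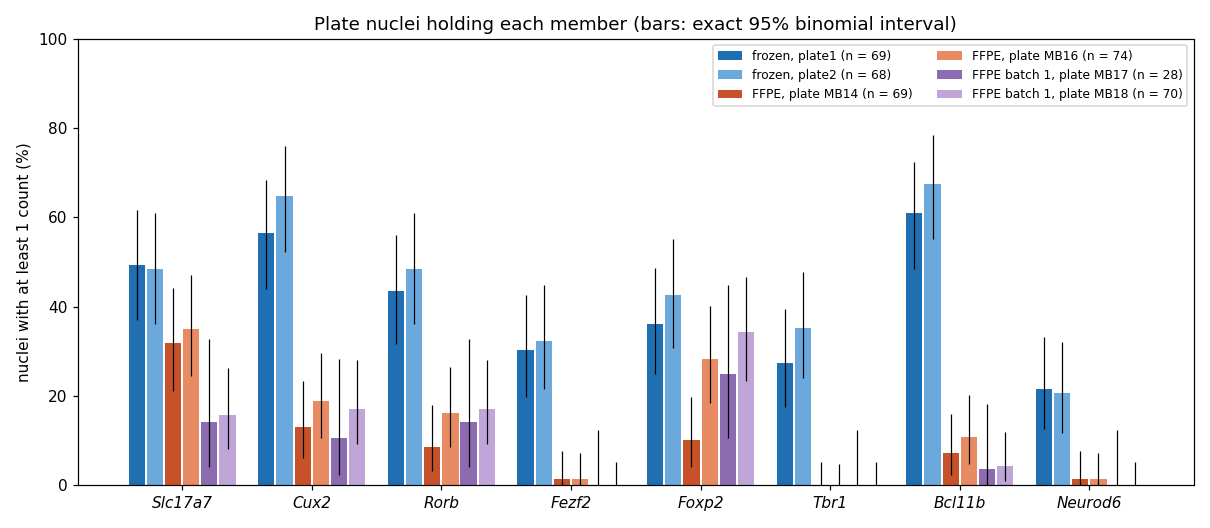
Share of plate nuclei with at least 1 count of each member, in percent, for the 2 frozen plates, the 2 FFPE plates beside them and the 2 plates of FFPE batch 1; thin lines are exact 95% binomial intervals. The intervals of the 2 frozen plates overlap for every member, and Tbr1 is at 0 in all 4 FFPE plates against 27.5% and 35.3% in frozen.

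Overlap of members within the frozen nuclei depended on which gene of a pair was taken as the base. Counting a nucleus as holding a gene from 20 CPM, Bcl11b was held by 69 nuclei, Cux2 by 62, Slc17a7 by 51, Rorb by 40, Foxp2 by 30, Tbr1 by 25, Fezf2 by 24 and Neurod6 by 10. Of the 10 Neurod6 nuclei, 10 also held Slc17a7, as did 23 of the 25 Tbr1 nuclei and 20 of the 24 Fezf2 nuclei. Bcl11b was held by 22 of the 24 Fezf2 nuclei, the subcerebral pair, but also by 24 of the 25 Tbr1, 9 of the 10 Neurod6 and 24 of the 30 Foxp2 nuclei. Of the layer 6 pair, Foxp2 was held by 11 of 25 Tbr1 nuclei (44.0%, against 17.0% of nuclei without Tbr1). Of the upper layer pair, Rorb was held by 26 of 62 Cux2 nuclei (41.9%, against 18.7% without Cux2). Turned round, Cux2 was held by 26 of 40 Rorb nuclei (65.0%, against 37.1% without Rorb). Fezf2 was held by 31.9% of Bcl11b nuclei, against 2.94% without Bcl11b. Slc17a7 was held by 27.4% of nuclei without Fezf2 and 25.0% of nuclei without Tbr1.

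Overlap was also found between genes that mark different layers or cell classes. Of the 62 Cux2 nuclei, 41 held Bcl11b (66.1%, against 37.3% of nuclei without Cux2). Of the 51 Slc17a7 nuclei, 28 held Gad1, the GABA-synthesising enzyme of interneurons (54.9%, against 29.1% without Slc17a7). Of the 25 Tbr1 nuclei, 19 held Gad1 (76.0%, against 30.4% without Tbr1). Inhibitory and glutamatergic markers in the same library were thus frequent, and doublets were not called in the plate libraries. At a cut of 1 count, nuclei with a member were deeper: those with at least 1 Tbr1 count had a median of 487360 counts and those without 112934. Depth was not compared at the cut of 20 CPM. The part of depth and of mixed libraries in these overlaps was not tested. In FFPE nuclei Slc17a7 was held by 35 nuclei and Bcl11b by 7. Gabra6 was held by 25.7% of the FFPE nuclei with Slc17a7 and 33.3% of those without, and in batch 1 by 72.7% (8 of 11) and 25.3%, the opposite order.

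**Figure D4:**
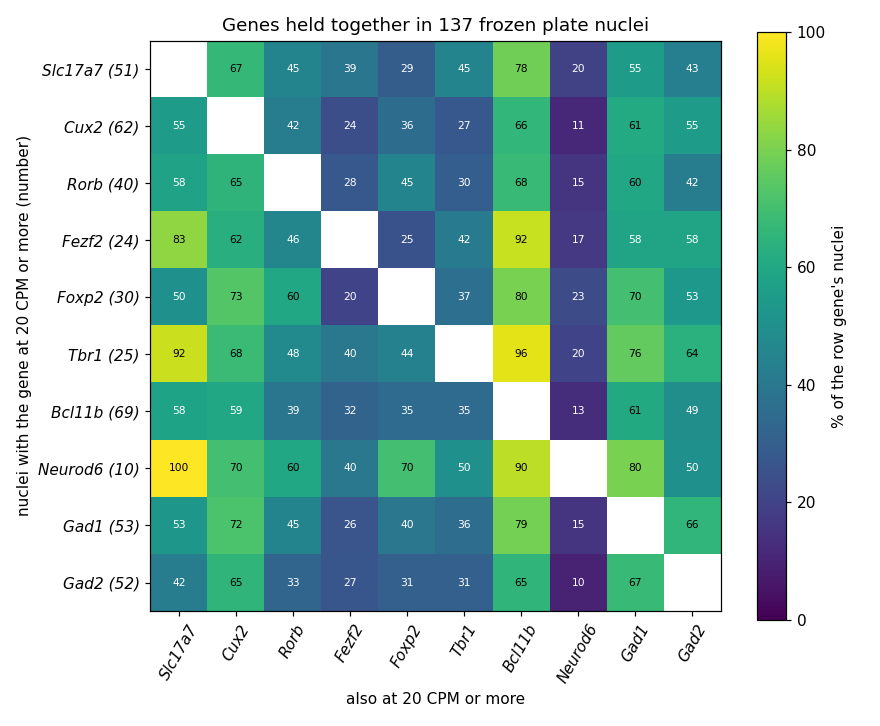
Overlap of members and 2 comparison genes (Gad1, Gad2) in the 137 frozen plate nuclei; each cell gives the percent of the nuclei holding the row gene at 20 CPM or more that also hold the column gene, with the number of row nuclei in parentheses. The rows of Neurod6, Tbr1 and Fezf2 are highest at Slc17a7 and Bcl11b, and Gad1 also overlaps every member.

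The droplet table is far shallower, with 7031 FFPE nuclei at 235 to 998 unique molecules (UMIs) each, a median of 325, and 0 repeated barcodes in this 1 sample. At least 1 member was found in 2170 nuclei (30.9%) and 2 or more in 314 (4.47%). The authors' annotation names 12 classes, 6 of them excitatory neurons (ExNeuron1 to ExNeuron6). Pooled over 5580 ExNeuron and 1451 other nuclei, 6 of 8 members were higher in the ExNeuron classes, where 47.7% of 10601 genes were. The annotation is of the same nuclei and no test was made. Doublets were not called, and all annotated nuclei were kept.

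Slc17a7, with 1401 UMIs the best covered member, peaked in ExNeuron1 at 729 CPM (672 to 789). The ExNeuron classes together stood at 562 CPM (531 to 596) and the other 6 at 439.9 (385 to 500.4). Its share of nuclei was 24.4% in ExNeuron1 (22.6 to 26.3; median depth 331 UMIs) and 12.4% in oligodendrocytes (8.89 to 16.7; 314 UMIs), a class that should lack the gene. ExNeuron2 to ExNeuron6, at 13.5% to 18.4%, had intervals that overlapped the oligodendrocyte interval, so the intervals did not set those 5 classes apart from that background. The ExNeuron1 interval lay above that of oligodendrocytes but overlapped those of 4 smaller classes, endothelial cells (11.5% to 23.1%), microglia (9.32% to 25.2%), oligodendrocyte precursors (12.4% to 22.9%) and fibroblasts (6.20% to 28.3%), at median depths of 285 to 396 UMIs. Slc17a7 stood at 337 CPM (275 to 409) in ExNeuron4, which overlapped astrocytes and oligodendrocytes. ExNeuron4 and ExNeuron6 had the highest levels of Gad1: 288 CPM (230.4 to 355) and 615 CPM (457 to 811), against 93.0 in ExNeuron1. The ExNeuron4 interval overlapped that of endothelial nuclei, 212 CPM (109.6 to 370.4), and the ExNeuron6 interval did not.

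Rorb was highest outside the neurons. Astrocytes stood at 726 CPM (621 to 844; 170 UMIs in 129 of 624 nuclei), ExNeuron1 at 298 (262 to 338), and the other 10 classes at 95.5 to 212. The share was 20.7% in astrocytes (17.6 to 24.1) and 8.35% in ExNeuron1 (7.20 to 9.60), at median depths of 339 and 331 UMIs, and 5.70% in oligodendrocytes (3.36 to 8.98). Intervals of astrocytes and ExNeuron1 lay apart, and in pooled CPM, though not in shares, the interval of ExNeuron1 lay above those of the other 5 ExNeuron classes. It overlapped that of oligodendrocytes, 193 CPM (119.5 to 295), so only the astrocyte interval lay above that background. After thinning to 250 UMIs, which left out 183 nuclei, astrocytes stayed highest at 606 CPM and ExNeuron1 stood at 270. Astrocyte markers were highest in the same class, at a summed level of 4370 CPM against 1025 to 2103 elsewhere.

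Foxp2 set the smallest class apart, with 707 CPM (386 to 1186) in fibroblasts from 14 UMIs in 8 of 47 nuclei. Among neurons it was highest in ExNeuron2, at 182 CPM (140 to 233), and low in ExNeuron3, at 30.8 (15.9 to 53.8), and ExNeuron6, at 12.3 (0.312 to 68.6). ExNeuron2 and ExNeuron3 intervals lay apart, and the order was kept after thinning, at 174 and 33.1 CPM. Oligodendrocytes stood at 138 CPM (77.2 to 227), which overlapped ExNeuron2, so the intervals did not set the ExNeuron2 level apart from background. Tbr1 was highest in ExNeuron6, at 135 CPM (67.6 to 242; 11 UMIs), against 55.7 (47.0 to 65.5) over all nuclei, and that class also held the highest Gad1. The intervals of oligodendrocytes, at 27.6 CPM (5.69 to 80.6), and astrocytes, at 68.3 (39.1 to 111), overlapped that of ExNeuron6. No difference between classes was tested.

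The remaining members could not be placed at this depth. Bcl11b was highest in ExNeuron5, at 120 CPM (68.6 to 195), with an interval that overlapped those of the other 11 classes. Cux2, with 130 UMIs, stood at 52.9 CPM (43.5 to 63.7) in ExNeuron classes and 38.1 (23.3 to 58.8) in the others, and its share of 1.92% in ExNeuron nuclei was below the 2.68% in oligodendrocytes. Neurod6, with 101 UMIs, stood at 39.4 CPM (31.4 to 48.9) and 36.2 (21.8 to 56.5). Fezf2 gave 23 UMIs in all, 21 in ExNeuron and 2 in other nuclei, or 10.1 CPM (6.25 to 15.4) and 3.81 (0.461 to 13.8). For all 4 the intervals of neurons and other classes overlapped.

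**Figure D5:**
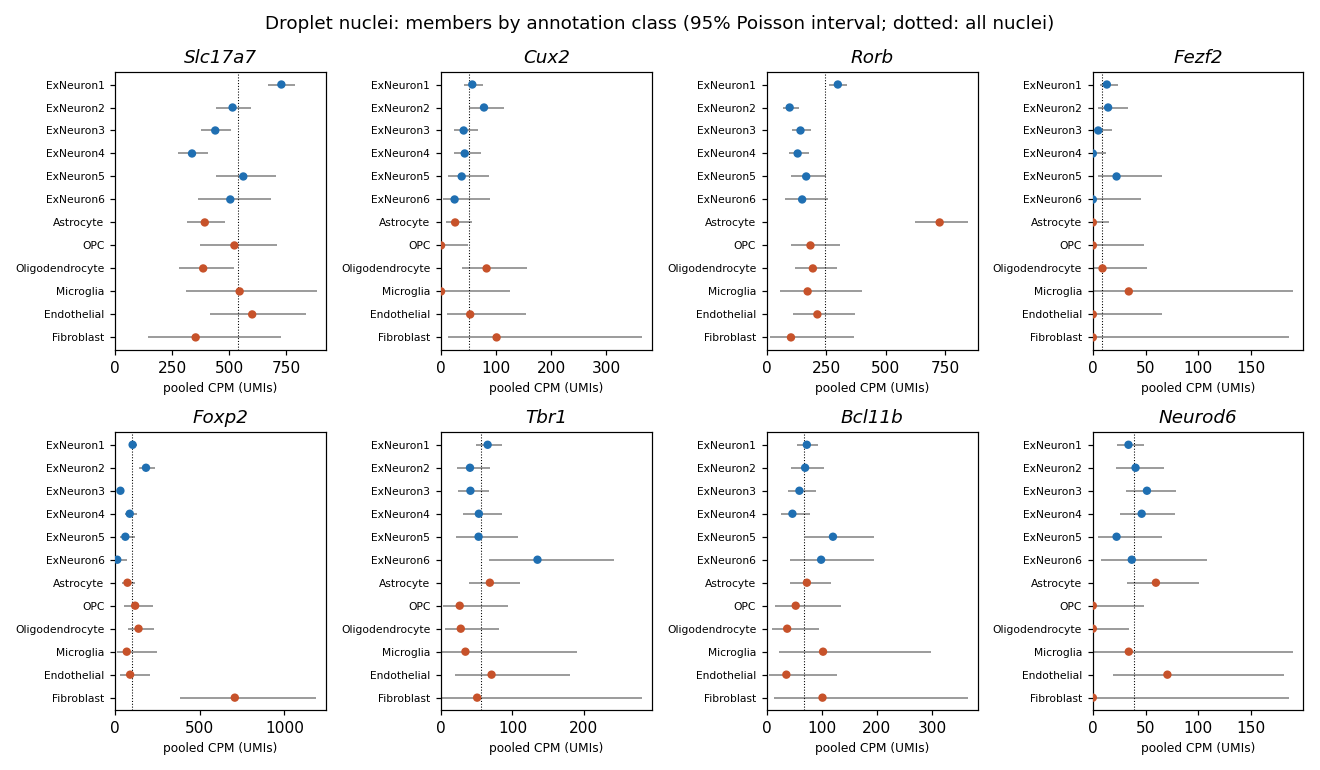
Pooled level of each member in the 12 annotation classes of the droplet nuclei, as CPM of UMIs on a linear axis from 0, with 95% Poisson intervals; blue points are ExNeuron classes, red points the others, and the dotted line all nuclei. Slc17a7 peaks in ExNeuron1 at 729, Rorb in astrocytes at 726 and Foxp2 in fibroblasts at 707, while Cux2, Fezf2, Bcl11b and Neurod6 have wide intervals.

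Genes most like each member across the 12 classes were sought among genes with at least 200 UMIs, by Pearson's r of log2 CPM; the classes come from 1 library and differ in depth, so r is a description. Rorb was most like Ttyh1 (r = 0.85), Slc1a2 (0.79), the glial glutamate transporter, and Gabrb1 (0.79). Slc17a7 was most like Ywhah (0.82), Ociad2 (0.79) and Gabarapl1 (0.77), and Tbr1 most like Cpne4 (0.89). Bcl11b was nearest to Tspyl2 and Scn2b (both 0.91), Cux2 to Dnaja1 (0.90), Neurod6 to Galnt18 (0.88) and Foxp2 to Itch (0.86). Across the 12 SMART-Seq2 wells, which share the split into frozen and FFPE, Cux2 was most like Spats2l (0.96), Pde8b (0.93) and Arl15 (0.93). Rorb was there most like Zfp692 and Atp11a (both 0.91).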

How the data were processed

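Mouse brain nuclei were measured as SCRB-seq wells, SMART-Seq2 wells, SMART-Seq2 plate nuclei and droplet nuclei. The deposited tables hold counts per gene and well or nucleus (UMI counts for droplets). The submitters' processing notes name hg19 and mm10; for aligner and counter, no name is given in the sources used here. The table of plate batch 3 holds 0 nuclei. SCRB-seq human genes were left out.

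Wells were grouped by the authors' annotation, nuclei by plate and droplet nuclei by the authors' classes. In 131 droplet nuclei the column sum is 1 below the annotated total. CPM divides by a library's mouse count. Tests used edgeR 4.0.16 in R 4.3.3 (TMM, filterByExpr, glmQLFit and glmQLFTest, Benjamini-Hochberg adjusted p under 0.05 over all genes tested, no covariates); the FFPE arm is the mean of the 3 methods. DESeq2 1.42.0 was an alternative, with other filters, subsets of wells, summed wells, nuclei number as a block and each SMART-Seq2 well left out. The code was tested on simulated data. Python 3.11, numpy 2.4.6, pandas 2.3.3, scipy 1.17.1 and matplotlib 3.10.9 gave intervals (exact, 95%), thinning (seed 1) and figures. Annotation is GENCODE M21; promoters are RefSeq windows.

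The members and lists were chosen with earlier results of these data known. Named are the 8 members, per list and chemistry at most the 4 largest called rises and falls, paralogs, and the 3 genes most like a member.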

Additional observations from a re-analysis of the deposited data

Results flagged for a closer look

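Among 30 groups of 8 SCRB-seq wells with at least 20 counts of a member, 5 had a highest well whose gap to the next was large for the group (Dixon's criterion). The nominal rate of that criterion, about 1 in 20 groups or 5%, holds for normally distributed values. The rate for low counts in wells of unequal depth was not measured, so 5 of 30 is a description and not an excess. Slc17a7 reached 311 CPM (10 of the 48 counts of its group) in a heated mineral oil well of 100 nuclei, where the next well had 104. Cux2 reached 528 CPM in a room-temperature xylene well of 10 nuclei, with 30 of 58 counts and the next well at 112. Foxp2 reached 504 CPM in a heated xylene well of 100 nuclei (49 of 78 counts; next 76.1) and 795 CPM in a frozen well of 10 nuclei (14 of 25 counts; next 79.8). Bcl11b reached 616 CPM in a heated xylene well of 10 nuclei, with 33 of 45 counts and the next well at 69.1. The wells were kept in all fits.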

How the results depend on the processing

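The number of members called lower in SCRB-seq FFPE wells, 1 as reported, was 6 with no filter on low counts, 6 with at least 10 counts, 2 in wells of 100 nuclei, 0 in wells of 10 nuclei (where 0 members passed the filter) and 0 with summed wells. Over all genes 857 were called as reported and 4785, 4637, 1119, 478 and 77 under these settings; the filters differ in how many genes they test. Between methods, 0 as reported became 5 with no filter and 6 with at least 10 counts, summed over 3 contrasts of 8 and 6 tested members. Of all genes, the 3 contrasts called 18.8%, 15.9% and 16.1% of 18205 with no filter. With at least 10 counts they called 26.6%, 21.1% and 22.0% of 13483. In SMART-Seq2, leaving out 1 well gave 0 to 2 called members and 162 to 469 called genes, against 1 and 372 as reported, and DESeq2 called 641. Against batch 1, 5 of 8 members were higher in frozen nuclei in place of 8. The droplet class with the highest level stayed the same for 5 of 8 members among classes of at least 100 nuclei and for 7 after thinning. The log2 differences of FFPE minus frozen of the members tested as reported, Rorb in SCRB-seq and 6 members in SMART-Seq2, kept their sign under the alternatives run, from -5.19 to -3.11 for Cux2 and -2.68 to -0.91 for Rorb in SMART-Seq2 and -1.81 to -1.12 for Rorb in SCRB-seq. With nuclei number as a block the called members stayed at 1 in both chemistries. The causes of these changes were not tested beyond the number of genes and wells in each fit. Fezf2, Tbr1 and Neurod6 rest on few counts in wells and droplets, where a 0 limits the level only to the floor given. No animal is named for any well or nucleus, frozen and FFPE libraries differ in cell markers, and each set of nuclei is 1 sample.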
